A study of Mus musculus with 24 samples.

Results

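The C2H2 zinc finger proteins form a large family of DNA-binding proteins in the mouse, and 174 of the 21755 protein-coding genes examined carried a Zfp symbol followed by a digit and lay on chromosome 7, 13 or 17. They were taken from GENCODE vM21 by symbol and position alone, with no measured value used. Chromosome 7 held 92 of them, chromosome 13 held 36 and chromosome 17 held 46. H3K9ac, the acetylation of lysine 9 of histone H3, was mapped by ChIPmentation, in which immunoprecipitated chromatin is tagged with the Tn5 transposase on the beads, in spheroids of the mouse mammary carcinoma line 4T1. Peak lists of 12 libraries were compared, 3 each from spheroids with a scramble guide (a non-targeting guide against EGFP), from CPT1a KO spheroids, from CPT1a KO spheroids given 5 mM acetate and from KAT2a KO spheroids. All spheroids carried doxycycline-inducible Cas9, were selected with puromycin and were collected on day 5. The labels give 75 µM palmitate in the medium of the scramble, CPT1a KO and KAT2a KO spheroids. They name acetate alone for the acetate group, whereas the study describes its CPT1a KO spheroids as grown with palmitate both with and without acetate. CPT1a brings long-chain fatty acids into mitochondria, and KAT2a is a histone acetyltransferase that writes H3K9ac, so the comparisons ask how the loss of either, or the supply of acetate, relates to promoter acetylation.

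Many C2H2 zinc finger genes of rodents stand in tandem clusters that arose by repeated duplication. Their proteins often carry a KRAB box at the amino end, through which they recruit the corepressor TRIM28 and the H3K9 methyltransferase SETDB1 to transposable elements and imprinted sites. H3K9ac, by contrast, lies at active promoters, so a peak at a zinc finger gene's start site may mark a promoter in use. No RNA was analysed here, so use of the promoter was not tested. By sequence patterns applied to the annotated proteins, 90 of the 174 genes matched a KRAB box and 84 did not. The pattern can miss boxes that depart from it, so genes without a match may still encode one. Below, genes with or without a KRAB box are those with or without a match. The median protein held 11 C2H2 fingers and the largest, Zfp619, held 33. Zfp36, Zfp36l2 and Zfp935 matched no finger by the pattern used. Zfp36 and Zfp36l2 are RNA-binding proteins with fingers of another type that promote the decay of AU-rich mRNAs. A total of 127 genes fell into 13 clusters, defined as runs of at least 4 of these genes with neighbouring start sites at most 250 kb apart, and 47 lay outside.

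The 6 promoters below, each 300 bases around the start site, were chosen to show the sequences behind the changes in peak rank and width reported further on. The first 3 belong to the cluster of chromosome 17 whose peaks ranked lower in the knockouts, the next 2 to genes whose peaks ranked higher in CPT1a KO and the last to a gene whose peak was wider in all groups than in scramble. They are RefSeq sequences of the GRCm38.p6 build, written 5′ to 3′ on the strand of the gene, with every CpG in capitals. Their positions are chr17:21962309-21962608 (plus strand) for Zfp943, chr17:21733474-21733773 (plus) for Zfp229, chr17:21566728-21567027 (plus) for Zfp948, chr7:127406773-127407072 (minus) for Zfp764, chr13:64153150-64153449 (minus) for Zfp367 and chr7:127345265-127345564 (minus) for Zfp768.
Zfp943: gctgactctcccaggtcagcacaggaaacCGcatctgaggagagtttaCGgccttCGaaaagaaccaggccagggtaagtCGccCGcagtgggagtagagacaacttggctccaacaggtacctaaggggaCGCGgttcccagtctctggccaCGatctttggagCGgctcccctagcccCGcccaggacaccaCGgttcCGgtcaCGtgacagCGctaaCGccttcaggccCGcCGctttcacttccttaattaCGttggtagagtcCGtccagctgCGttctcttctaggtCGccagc
Zfp229: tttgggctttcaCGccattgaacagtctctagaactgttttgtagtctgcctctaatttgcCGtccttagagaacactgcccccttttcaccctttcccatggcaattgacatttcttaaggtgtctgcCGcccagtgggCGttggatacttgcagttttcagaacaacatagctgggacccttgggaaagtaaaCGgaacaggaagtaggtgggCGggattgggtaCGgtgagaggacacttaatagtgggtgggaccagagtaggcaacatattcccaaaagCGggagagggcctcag
Zfp948: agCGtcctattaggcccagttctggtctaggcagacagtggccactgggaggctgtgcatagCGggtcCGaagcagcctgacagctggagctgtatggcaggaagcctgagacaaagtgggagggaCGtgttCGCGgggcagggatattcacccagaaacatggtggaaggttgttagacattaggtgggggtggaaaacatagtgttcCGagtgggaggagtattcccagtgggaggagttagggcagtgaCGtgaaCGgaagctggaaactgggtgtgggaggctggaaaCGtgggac
Zfp764: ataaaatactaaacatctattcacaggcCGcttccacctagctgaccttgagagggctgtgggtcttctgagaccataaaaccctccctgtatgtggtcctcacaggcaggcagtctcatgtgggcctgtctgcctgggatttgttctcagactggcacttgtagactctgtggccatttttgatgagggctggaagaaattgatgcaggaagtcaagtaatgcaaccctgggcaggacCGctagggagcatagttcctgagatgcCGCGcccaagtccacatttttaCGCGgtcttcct
Zfp367: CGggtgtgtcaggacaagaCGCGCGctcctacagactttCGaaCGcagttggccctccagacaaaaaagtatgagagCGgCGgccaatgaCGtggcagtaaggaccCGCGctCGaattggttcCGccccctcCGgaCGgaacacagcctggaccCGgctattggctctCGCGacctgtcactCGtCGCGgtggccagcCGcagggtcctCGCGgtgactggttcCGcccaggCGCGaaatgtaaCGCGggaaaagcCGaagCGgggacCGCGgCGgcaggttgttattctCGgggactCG
Zfp768: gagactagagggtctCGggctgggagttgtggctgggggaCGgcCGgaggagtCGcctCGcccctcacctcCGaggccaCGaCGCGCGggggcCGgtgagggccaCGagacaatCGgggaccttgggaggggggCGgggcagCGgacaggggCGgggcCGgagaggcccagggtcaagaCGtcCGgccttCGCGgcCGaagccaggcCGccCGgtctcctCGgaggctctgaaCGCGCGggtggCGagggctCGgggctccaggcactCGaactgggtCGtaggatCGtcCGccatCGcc

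CpGs numbered 21 in the promoter of Zfp943, 8 in that of Zfp229 and 10 in that of Zfp948, against 6 in Zfp764, 36 in Zfp367 and 35 in Zfp768. Zfp943 and Zfp942 are transcribed away from each other, and their 300-base windows overlap by 194 bases, so both genes were scored by 1 peak. RefSeq promoters were matched for 155 of the 174 genes, with 178 promoters in all. The median promoter held 12 CpGs in these genes, 9 in those with a KRAB box and 17 in those without, against 14 over 20061 promoters of all coding genes. Among genes with a peak in all 12 libraries the median was 13 in 151 Zfp promoters and 21 in 10924 promoters of all coding genes. Letter motifs were searched on both strands. Among promoters of genes with a peak in all 12 libraries, the SP box GGGCGG was present in 42.4% of the Zfp promoters and in 65.2% of all promoters, and CCAAT in 45.7% against 38.4%. The ETS core CCGGAAG was found in 21.2% against 19.3%, TATAAA in 5.96% against 6.36%, and ACTACAA, which begins the site of Zfp143, in 7.28% against 4.41%. Whether or not a peak was called, the shares were 38.2% against 48.0% for GGGCGG, 46.1% against 37.9% for CCAAT, 20.8% against 11.9% for CCGGAAG, 7.30% against 12.1% for TATAAA and 7.30% against 3.68% for ACTACAA. Promoters of KRAB genes held ACTACAA in 11.1%. In the chromosome 17 cluster, GGGCGG was present in 12 of 19 promoters, whereas in the cluster of chromosome 13 it was present in 2 of 21. None of these matches was tested as a binding site.

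The lists held 16212 to 34370 peaks. Calling depth, the average number of fragments over a base when the peaks were called, was recovered from the peaks as 2.10 ± 0.364 in scramble, 1.27 ± 0.626 in CPT1a KO, 1.34 ± 0.632 with acetate and 1.503 ± 0.423 in KAT2a KO (SD, n = 3 each). The shallowest libraries were CPT1a KO replicate 3, at 0.554, and acetate replicate 2, at 0.660. The promoters of Krt8, Krt18, Epcam, Cdh1 and Cldn4, which mark epithelial cells, had a peak in all 12 libraries, and those of the blood or vessel genes Ptprc, Cd3e, Pecam1 and Cdh5 had a peak in none. These genes were chosen after the values had been seen and are no full census of cell types. A guide disrupts a coding sequence, so peaks at the promoters of Cpt1a and Kat2a do not check the knockouts. Peaks come from bulk chromatin, in which a mark on fewer cells and less of the mark in each cell cannot be told apart.

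Most of these zinc finger promoters were acetylated in every library. A promoter, the window within 1 kb of any annotated start site, had a peak in all 12 libraries for 147 of the 174 genes (84.5%), in none for 12 (6.90%) and in some for 15 (8.62%). The 147 genes stood for 143 distinct peaks. The windows of 27 of the 174 genes overlapped that of another coding gene, so a peak there cannot be given to either gene alone. Of the 220 Zfp genes on other chromosomes, 69.1% were called in all 12, as were 44.3% of the 3743 other coding genes on the same 3 chromosomes and 49.5% of all coding genes. Within the family, the share was 91.3% on chromosome 17 (42 of 46), 86.1% on chromosome 13 (31 of 36) and 80.4% on chromosome 7 (74 of 92). Each library called 150 to 157 of the 174 promoters, and the lowest number came from the shallowest library, CPT1a KO replicate 3. For 0 of the 174 promoters did every library of a group have a peak while every library of another had none. No share of all coding genes is given beside this count, so it is not a trait of these genes.

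**Figure D1:**
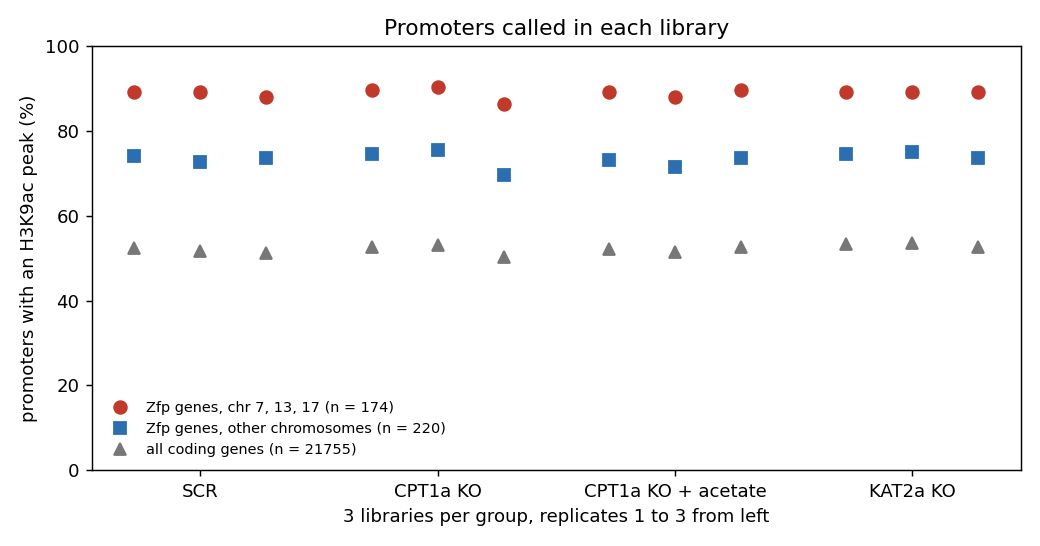
Percentage of promoters with an H3K9ac peak (y axis, 0 to 100%) in each of the 12 libraries (x axis, 3 per group), for the 174 Zfp genes on chromosomes 7, 13 and 17 (circles), 220 Zfp genes elsewhere (squares) and 21755 coding genes (triangles). The circles lie between 86.2% and 90.2% in every library, and the triangles between 50.3% and 53.6%.

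The 12 promoters without a peak belonged to Zfp366, Zfp677, Zfp811, Zfp583, Zfp551, Zfp541, Zfp114, Zfp575, Zfp536, Zfp977, Zfp936 and Zfp819. Reads from duplicated genes can be lost where they map to several places, so the share of 50-base words of a promoter window that occur once in the genome was counted. It was a median of 99.0% in the 12 promoters without a peak and 97.1% in the 147 called everywhere. It was lowest among the former in Zfp936, at 72.4%. Among the latter it fell to 1.53% in Zfp97, 7.14% in Zfp955a, 22.7% in Zfp955b, 37.8% in Zfp935 and 39.8% in Zfp934. How reads were placed in such windows was not tested, so their peaks cannot be given to 1 gene with certainty. Among the 15 partly called genes was Zfp57, which keeps DNA methylation at imprinted regions and is needed in the early embryo. Its promoter had a peak in 2 of 3 scramble, 3 of 3 CPT1a KO, 1 of 3 acetate and 3 of 3 KAT2a KO libraries. Zfp820, in the chromosome 17 cluster, was called in 2 scramble libraries and in none of the other 9, and Zfp595 in 2 CPT1a KO libraries, 1 acetate library and none of the other groups. Zfp273, Zfp14 and Zfp109 were each missed only in CPT1a KO replicate 3, the shallowest list.

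To compare levels between libraries that were not scaled to each other, the strongest promoter peak of each gene was ranked by fold enrichment within its library among the 10777 genes called in all 12, on a scale from 0 (weakest) to 100 (strongest). The 147 zinc finger genes sat in the lower part of this scale. Their mean rank over 12 libraries had a median of 32.7 (quartiles 16.3 and 49.4), and 9 genes exceeded 75 while 57 lay below 25. The median rank in single libraries ran from 26.6 to 33.9, against 41.2 to 48.6 for the 152 Zfp genes of other chromosomes called in all 12. The 76 genes that matched the KRAB pattern ranked lower than the 71 that did not. Their median per library was 26.8 ± 1.89 against 38.0 ± 7.41 in scramble and 18.1 ± 2.92 against 41.5 ± 5.04 in CPT1a KO (SD, n = 3).

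The highest ranks belonged to genes without a match to the KRAB pattern. Zfp36l2 averaged 92.3, with 94.5 to 99.8 in 11 libraries and 20.1 in CPT1a KO replicate 1. Zfp507 averaged 91.1 and kept within 86.7 to 96.4 in all 12 libraries, so no library stood apart. Zfp143, a transcription factor that binds many housekeeping promoters, averaged 87.4 and ranged from 63.1 to 98.7. Zfp592 averaged 85.4, with 28.5 in scramble replicate 1 as its lowest value, and Zfp367 averaged 84.7. The 5 lowest genes, Zfp493, Zfp945, Zfp459, Zfp93 and Zfp667, all encoded a KRAB box. Zfp667 was last, with an average of 2.51 and a highest value of 9.43. The widest promoter peaks over the 12 libraries were those of Zfp36l2, Zfp36 and Zfp710. Zfp36, tristetraprolin, which limits cytokine mRNAs, spanned 2295 to 8345 bp.

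In CPT1a KO compared with scramble, the peaks of 14 zinc finger genes fell in rank and those of 6 rose. Zfp942 and Zfp943 share a peak, so the 14 genes stood for 13 peaks. Of the 14, 11 encoded a KRAB box, 9 lay on chromosome 17 and 7 in a single cluster of that chromosome. By limma on normal scores of the ranks, with Benjamini-Hochberg adjustment over all 10777 genes, 9.52% of the 147 genes were called lower and 4.08% higher, beside a background of 5.19% lower and 4.65% higher over all genes. Of the 152 Zfp genes of other chromosomes, 10 were called lower and 10 higher. The median difference was -4.04 percentile points for the 147 genes and 0.22 for all genes. It was -8.80 for the 76 KRAB genes and 0.48 for the 71 others. The ranks of the 3 libraries of one group all exceeded those of the other for 58 of the 147 genes (39.5%, 39 of them lower in CPT1a KO), beside 30.9% of all genes.

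The promoter shared by Zfp942 and Zfp943 fell most. Its ranks were 91.1, 95.2 and 93.5 in scramble and 47.7, 37.6 and 36.6 in CPT1a KO. Scramble libraries thus placed it near the top of the scale and CPT1a KO libraries below the middle, with no overlap (difference -52.6, -1.75 ± 0.29 in normal scores (SE), limma adjusted p = 0.00413). Zfp51 ranked 64.6, 70.95 and 65.7 in scramble and 16.8, 4.44 and 37.8 in CPT1a KO (adjusted p = 0.0151 by limma). Zfp229 ranked 64.8, 80.7 and 80.7 against 45.02, 37.5 and 9.52 (adjusted p = 0.0216 by limma). In both, the highest CPT1a KO library lay below the lowest scramble library. Zfp760 ranked 84.8, 73.5 and 77.9 against 57.8, 20.7 and 30.0 (limma adjusted p = 0.0194). Zfp948 ranked 68.8, 58.9 and 74.2 against 10.4, 34.6 and 33.2 (limma adjusted p = 0.038). These 6 genes lie in 1 cluster of chromosome 17. Zfp748, a KRAB gene of the chromosome 13 cluster, ranked 80.2, 67.4 and 68.5 against 21.1, 45.7 and 25.3 (limma adjusted p = 0.0173). The other genes called lower were Zfp160, Zfp260, Zfp420, Zfp472, Zfp85, Zfp946 and Zfp975.

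Among the genes whose peaks rose, Zfp764 had the largest difference. It ranked 4.00, 20.5 and 19.9 in scramble and 74.9, 60.6 and 71.1 in CPT1a KO (difference 54.1, 1.64 ± 0.31 in normal scores (SE), limma adjusted p = 0.00753). All CPT1a KO libraries placed it above the middle of the scale and all scramble libraries below 25. Zfp523, the mouse form of ZNF76 and a close relative of Zfp143, ranked 37.0, 11.9 and 17.04 against 68.9, 57.6 and 76.6 (limma adjusted p = 0.0125). Zfp324 ranked 7.13, 23.1 and 11.04 against 65.6, 52.8 and 41.1 (limma adjusted p = 0.0185). Zfp606, a KRAB gene, ranked 30.5, 48.9 and 49.4 against 84.8, 79.5 and 77.7 (limma adjusted p = 0.0302). None of these groups overlapped. Zfp619 rose from 4.14, 2.35 and 2.79 to 43.4, 24.9 and 29.3 (limma adjusted p = 0.00611). Zfp367, already strong in scramble at 72.4, 68.8 and 62.1, reached 93.8, 94.0 and 97.5 (limma adjusted p = 0.0193).

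**Figure D2:**
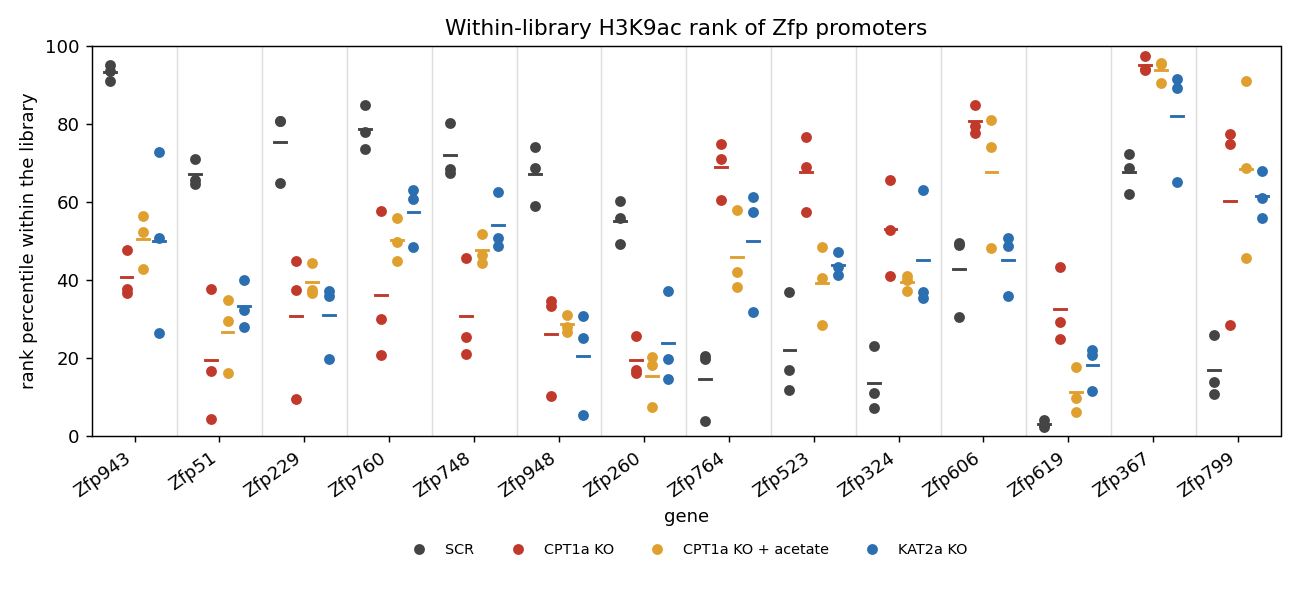
Rank percentile of the strongest promoter peak within each library (y axis, 0 weakest to 100 strongest) for 14 Zfp genes (x axis) in 4 groups of 3 libraries. Points are libraries and short lines group means. From Zfp943 to Zfp260 the scramble points lie above all CPT1a KO points, and from Zfp764 to Zfp799 below them.

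GC content moved with these differences. The windows of the 14 genes that fell had a median GC of 44.5% and those of the 6 that rose 51.3%. It was 46.8% for the 147 zinc finger genes and 50.3% for all genes called in all 12. With the GC trend removed in each library, 7 zinc finger genes rose and 4 fell, so the excess of lower over higher calls was lost. The 4 that fell were Zfp942, Zfp943, Zfp51 and Zfp760, and all 6 genes that rose remained called. At equal calling depth, 23 fell and 9 rose, and with ranks by -log10 p 30 fell and 16 rose. Shares over all genes are given for the main test alone, here and below. Counts under other settings or without 1 library thus have no background beside them. Leaving out 1 library gave 13, 16 and 13 calls without CPT1a KO replicate 1, 2 or 3, and 9, 10 and 8 without scramble replicate 1, 2 or 3, of which 5, 5 and 6 were lower.

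The cluster with the most calls, cluster 17-1, held 18 genes between positions 21383748 and 22456689 of chromosome 17 (GRCm38), all with a KRAB box. Promoter peaks of 16 of them were present in all 12 libraries, and all 16 had a lower mean rank in CPT1a KO than in scramble, with a median difference of -21.1. The count was 15 with the GC trend removed, with a median of -16.2, and 15 at equal calling depth, with a median of -23.7. Over all settings and left-out libraries it was 15 or 16. The median was less stable, at -38.2 without scramble replicate 2, and the 7 calls of lower rank became 3 without scramble replicate 3, 4 without scramble replicate 1 or 2 or CPT1a KO replicate 3, and 4 with the GC trend removed. In 2 cases a pair of genes shares a peak in this cluster (Zfp942 with Zfp943, and Zfp758 with Zfp944). The median uniqueness of the cluster's windows was 87.1%, against 97.01% for all 174 genes, and the part of mapping in the differences was not tested. Zfp54 differed least, with mean ranks of 7.79 in scramble and 7.25 in CPT1a KO.

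Other clusters moved less or the other way. Cluster 13-1, of 23 genes on chromosome 13 with 21 KRAB genes, had 19 promoters called everywhere, 13 of them lower, and a median difference of -6.01. Its peaks were also among the weakest, with a median rank of 12.3. Cluster 7-7, of 15 genes on chromosome 7, had a median of -17.4, with 11 of 13 lower. Cluster 17-2, the other one on chromosome 17, had a median of -8.36 with 7 of 12 lower. In cluster 7-10, which holds Zfp764 and Zfp768, the median was 15.9, and 2 of 8 genes were lower. The windows of cluster 7-10 had a median GC of 53.9% and those of cluster 17-1 of 43.8%.

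**Figure D3:**
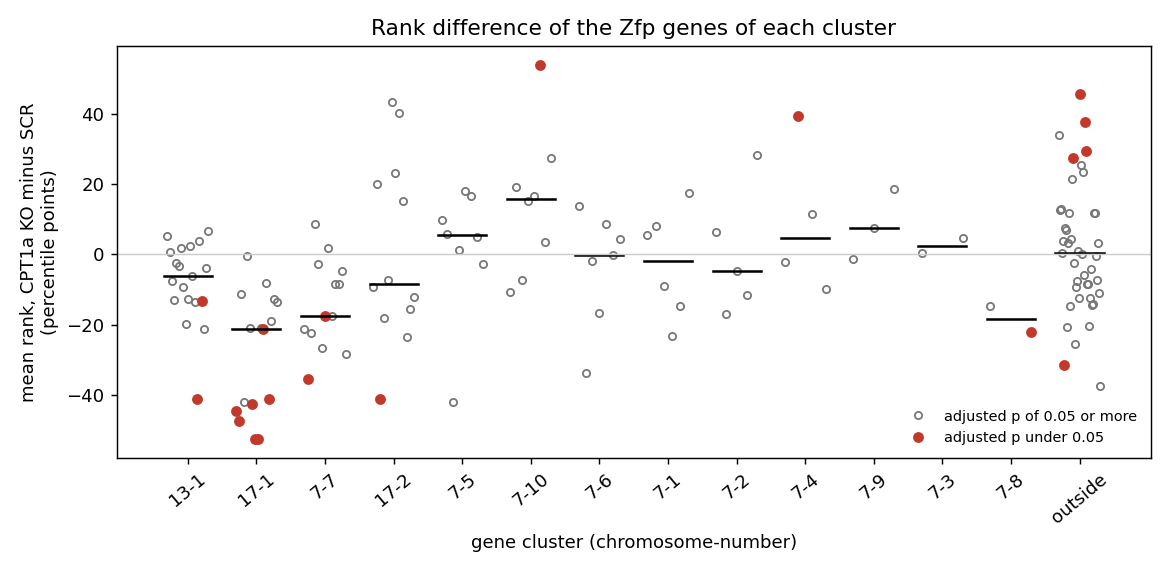
Difference in mean rank between CPT1a KO and scramble (y axis, percentile points) for each of the 147 Zfp genes, by cluster (x axis, chromosome and a number given along it) and outside the clusters. Filled points passed an adjusted p of 0.05 by limma, and black lines are medians, lowest in cluster 17-1 at -21.1 and highest in cluster 7-10 at 15.9.

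KAT2a KO was compared with the same scramble libraries, so its differences are not independent of those above. Peaks of 4 genes fell in rank, all with a KRAB box and all in cluster 17-1, and none rose. The share called lower was 2.72% of the 147 genes beside 2.12% of all genes, and the share called higher was 0 beside 1.57%. The 4 genes, with 3 peaks, were Zfp942, Zfp943, Zfp229 and Zfp948. The shared promoter of Zfp942 and Zfp943 ranked 26.4, 50.7 and 72.9 in KAT2a KO, a wide spread that still lay below all scramble libraries (difference -43.3, limma adjusted p = 0.0194). Zfp229 ranked 19.8, 36.0 and 37.3 (difference -44.3, limma adjusted p = 0.0462). Zfp948 ranked 30.8, 5.46 and 25.1 (difference -46.9, limma adjusted p = 0.0327). All 16 genes of cluster 17-1 had a lower mean than in scramble, with a median of -19.1, and with the GC trend removed 14 did, with a median of -12.4. The median over the 147 genes was -3.89 and over all genes 0.10, and groups did not overlap for 43 genes (29.3%), beside 29.3% of all genes. There were 0 calls without scramble replicate 1 or without scramble replicate 3, 2 without scramble replicate 2 and 1 without KAT2a KO replicate 1. Without KAT2a KO replicate 2 none of the 4 genes passed, and the 1 call was Zfp983. The count was 5 with the GC trend removed (3 lower, without Zfp229), 29 with ranks by -log10 p (20 lower) and 11 at equal calling depth (8 lower).

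In CPT1a KO with acetate compared with scramble, 3 genes fell and 2 rose. The genes that fell were Zfp942, Zfp943 and Zfp260, and those that rose were Zfp799 and Zfp367. The share called lower was 2.04% beside 3.55% of all genes, and the share called higher 1.36% beside 1.77%. The shared promoter of Zfp942 and Zfp943 ranked 42.9, 52.3 and 56.5 with acetate (difference from scramble -42.7, limma adjusted p = 0.0133). Zfp260 ranked 20.3, 18.3 and 7.58, against 60.3, 55.8 and 49.1 in scramble (difference -39.7, limma adjusted p = 0.0227). Zfp799 ranked 68.8, 90.9 and 45.7, against 10.7, 14.0 and 25.9 (difference 51.6, limma adjusted p = 0.0357). Zfp367 ranked 95.7, 95.4 and 90.4 (difference 26.1, limma adjusted p = 0.0402). The median over the 147 genes was -3.08, and groups did not overlap for 51 genes (34.7%), beside 31.9% of all genes. With the GC trend removed the median was -0.17 and 2 genes were called. With ranks by -log10 p there were 35 calls and at equal calling depth 15. The count was 1 without acetate replicate 1 and 2 without acetate replicate 2 or without any 1 scramble library. In cluster 17-1, 13 of 16 genes had a lower mean rank with acetate than in scramble, with a median difference of -16.9. That median ran from -26.3 without scramble replicate 2 to -11.6 with the GC trend removed.

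Between acetate-treated and untreated CPT1a KO spheroids, no zinc finger gene passed the test by limma, and neither did any of the 10777 genes (0% called). At an unadjusted p under 0.05, 8 of the 147 genes and 9.33% of all genes were found. No other tool was run, and every alternative setting also gave 0. The lowest adjusted p among the 147 genes was 0.265, for Zfp420, which ranked 2.06, 2.25 and 9.83 without acetate and 30.8, 36.3 and 27.1 with it. The groups did not overlap for 18 genes (12.2%), beside 14.2% of all genes. Of the 16 genes of cluster 17-1, 15 had a higher mean rank with acetate than without, with a median difference of 5.76, and none was called. That median ran from 2.22 with ranks by -log10 p to 9.50 without CPT1a KO replicate 1, and 0 to 4 genes had a lower mean. The cluster was singled out for its low ranks in these same CPT1a KO libraries, so the comparison is not independent of that choice. The shared promoter of Zfp942 and Zfp943 differed by 9.91 (0.25 ± 0.29 in normal scores, SE, limma adjusted p = 0.843). The 2 shallowest of the 12 libraries belong to these groups, 1 to each.

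**Figure D4:**
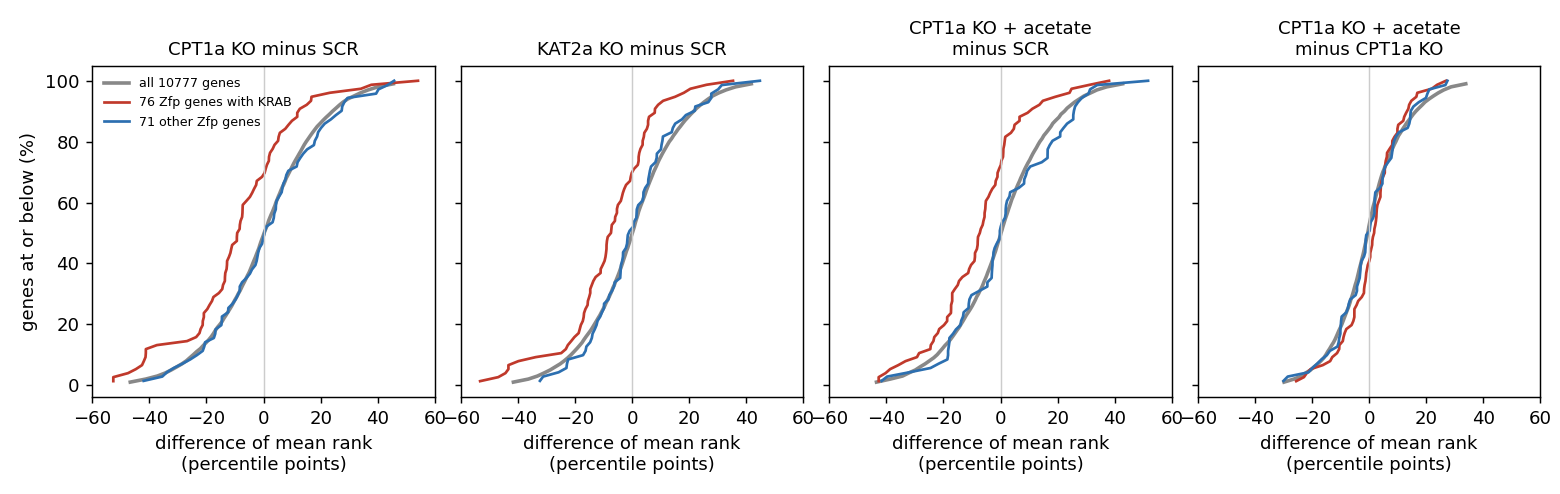
Cumulative percentage of genes (y axis) by difference in mean rank (x axis, percentile points) in the 4 comparisons. Grey is all 10777 genes, red the 76 Zfp genes that matched the KRAB pattern and blue the 71 that did not. In the 3 comparisons with scramble the red line lies to the left of the others over most of its range, with a median of -8.80 in CPT1a KO, -7.31 in KAT2a KO and -7.12 with acetate, and in acetate against CPT1a KO it lies at 1.79.

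Peak width gave a second measure. The widest promoter peak of each gene was taken on a log2 scale relative to the median promoter of its library, which ranged from 1467 bp in CPT1a KO replicate 3 to 2919 bp in scramble replicate 1. Zinc finger promoters had narrower peaks than coding genes as a whole in every library, with medians of 1076 to 2297 bp against 1451 to 2823 bp. Zfp genes of other chromosomes were also narrower than all coding genes in every library, though less so, with medians of 1360 to 2538 bp. In CPT1a KO compared with scramble, 15 genes were relatively narrower and 6 wider, 10.2% and 4.08% of the 147 genes, beside a background of 7.63% narrower and 8.31% wider. In KAT2a KO, 18 were narrower, with 17 peaks, and 4 wider, beside 6.47% and 6.89%. With acetate, 13 were narrower, with 11 peaks, and 5 wider, beside 4.89% and 6.45%. Of the 152 Zfp genes of other chromosomes, 12 were narrower and 13 wider in CPT1a KO. Between acetate-treated and untreated CPT1a KO, 0% of all genes and none of the 147 were called by limma, with 5 of the 147 and 5.06% of all genes at an unadjusted p under 0.05. These counts depended on how neighbouring peaks were treated. With peaks within 500 bp merged, 6 were narrower and 10 wider in CPT1a KO, 10 and 10 in KAT2a KO and 10 and 9 with acetate. Without the relative scale, 48, 0 and 7 were called, all narrower. No share of all genes is given beside the counts under these settings. The median promoter itself was narrower than in scramble by -0.39, -0.16 and -0.26 on the log2 scale.

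Zfp768, which binds an old class of interspersed repeats, was wider in all 3 comparisons with scramble. Its peak spanned 2142, 1452 and 1330 bp in scramble, 2562, 2520 and 2100 bp in CPT1a KO, 2459, 2532 and 2795 bp with acetate, and 2831, 2815 and 2149 bp in KAT2a KO. The relative log2 difference was 0.96 ± 0.14 in CPT1a KO (SE, limma adjusted p = 0.0013), 0.84 in KAT2a KO (limma adjusted p = 0.00339) and 0.95 with acetate (limma adjusted p = 0.00189). With peaks within 500 bp merged it was 0.05 in CPT1a KO (limma adjusted p = 0.711), -0.07 in KAT2a KO and -0.03 with acetate, so all 3 calls were lost. Zfp579 spanned 1151, 1192 and 1003 bp in scramble and 2212, 1918 and 1667 bp in KAT2a KO (0.95, limma adjusted p = 0.00703). Zfp446 and Zfp598, an E3 ligase that marks collided ribosomes, were also wider in all 3, and lost all 3 calls with peaks merged (CPT1a KO 0.176 and 0.115, limma adjusted p = 0.379 and 0.623). Zfp579 kept its call on merging in CPT1a KO and lost it in the other comparisons. Zfp598 measured 2576, 2538 and 2616 bp in scramble and 3798, 3844 and 3088 bp in KAT2a KO (0.63, limma adjusted p = 0.017).

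Zfp850 was narrower in all 3 comparisons. Its peak spanned 3555, 3025 and 3146 bp in scramble, 1731, 1821 and 1245 bp in CPT1a KO, 1772, 1733 and 1979 bp with acetate, and 2099, 2134 and 1744 bp in KAT2a KO. Every scramble library exceeded every other one (CPT1a KO -0.65 ± 0.12, SE, limma adjusted p = 0.0052). Zfp563 spanned 2632, 1790 and 2056 bp in scramble and 1139, 1300 and 900 bp in CPT1a KO (-0.57, limma adjusted p = 0.00841). Zfp760 and Zfp53, both of cluster 17-1, differed by -0.67 and -0.68 in CPT1a KO (limma adjusted p = 0.0139 and 0.0145). Zfp760 spanned 3968, 2925 and 3659 bp in scramble and 1909, 2314 and 1063 bp in CPT1a KO. With peaks merged, Zfp850 kept its 3 calls and Zfp760 its calls in CPT1a KO and KAT2a KO, whereas Zfp53 lost both of its calls and Zfp563 kept only that with acetate. The windows of the 15 genes narrower in CPT1a KO had a median GC of 45.6%, and those of the 6 wider genes 54.8%. Leaving out 1 library moved the CPT1a KO count to 8, 6 and 14 without CPT1a KO replicate 1, 2 or 3, and to 30, 21 and 7 without scramble replicate 1, 2 or 3. The KAT2a KO count moved to 4, 6 and 12 without KAT2a KO replicate 1, 2 or 3, and to 30, 20 and 8 without the scramble ones. The acetate count moved to 4, 10 and 7 and to 21, 15 and 7 in the same order.

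**Figure D5:**
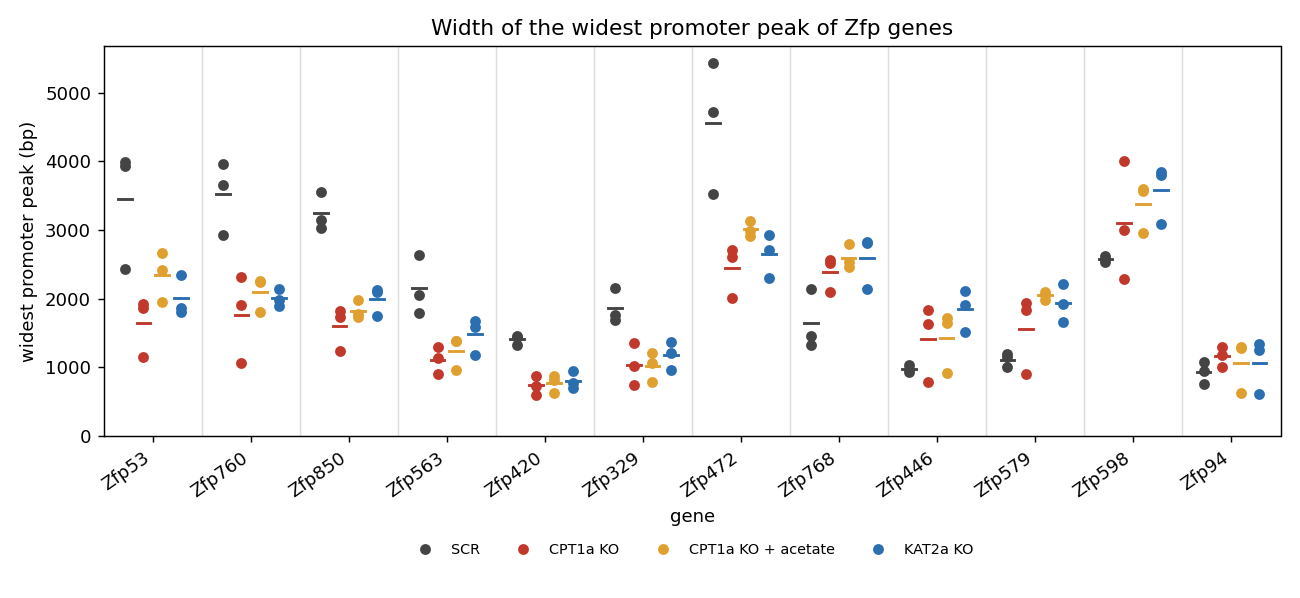
Width in bp of the widest promoter peak (y axis, from 0) for 12 Zfp genes (x axis) in 4 groups of 3 libraries, before division by the library median. Points are libraries and short lines group means. The scramble points of Zfp850, 3025 to 3555 bp, lie above all others, and those of Zfp579, 1003 to 1192 bp, lie below all but 1 of the others.

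Several zinc finger genes of known function were followed whatever their values. Zfp568, which silences a placental promoter of Igf2, ranked 69.7, 53.9 and 56.5 in scramble and 31.1, 52.4 and 43.9 in CPT1a KO (-17.5, limma adjusted p = 0.283). Zfp36 ranked 79.5, 47.8 and 34.0 in scramble and 78.4, 80.7 and 66.4 in CPT1a KO, groups that overlap (limma adjusted p = 0.283). Zfp110 and Zfp369, which bind the neurotrophin receptor p75, averaged 23.2 and 12.98 over the 12 libraries. Zfp346, which binds double-stranded RNA, averaged 44.2, Zfp30 averaged 23.1 and Zfp13 averaged 38.6. None of these 7 genes was called in rank in any comparison. The same list also held Zfp367 and Zfp57. Zfp367 ranked higher than in scramble in CPT1a KO (27.4, limma adjusted p = 0.0193) and with acetate (26.1, limma adjusted p = 0.0402). Zfp57 lacked a promoter peak in some of the 12 libraries, so its rank was not tested.

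Of 18 genes for cofactors of KRAB zinc finger proteins, 17 were called in all 12 libraries. In CPT1a KO compared with scramble, 1 of the 17 rose and 2 fell in rank, beside 4.65% and 5.19% of all genes. Chd3, a chromatin remodeller of the NuRD complex, rose by 36.1 points (limma adjusted p = 0.00753), and Cbx5, which encodes the heterochromatin protein HP1 alpha, fell by 34.9 (limma adjusted p = 0.0149). Cbx3, for HP1 gamma, fell by 11.1 (limma adjusted p = 0.0364) and by 46.6 in KAT2a KO (limma adjusted p = 0.00238). It was the 1 cofactor called in KAT2a KO, where 2.12% of all genes were called lower and 1.57% higher. The promoter window of Cbx5 is shared with Hnrnpa1, that of Cbx3 with Hnrnpa2b1 and that of Trim28 with Slc27a5, so these peaks cannot be given to either gene alone. With acetate, Chd3 was called higher and Cbx5 lower than in scramble, beside 1.77% higher and 3.55% lower of all genes. Trim28 itself differed by -28.1 in CPT1a KO (limma adjusted p = 0.1) and Setdb1 by 19.4 (limma adjusted p = 0.448). In width, 1 cofactor was narrower in each comparison with scramble, Setdb1 in CPT1a KO and Smarcad1 in KAT2a KO and with acetate. Of all genes, 7.63%, 6.47% and 4.89% were narrower in these comparisons. No cofactor was called in either measure between acetate-treated and untreated CPT1a KO.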

How the data were processed

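H3K9ac ChIPmentation libraries from 12 of the 24 samples were analysed, and the 12 inputs were not analysed here. Per the methods, the authors trimmed reads with fastq-mcf, aligned them with BWA to mm10 and removed duplicates with Picard. The submitters' processing notes name FastQC, Bowtie2, SAMtools, deepTools and MACS2, with the builds mm10 and dm6. Labels and methods give different antibody catalogue numbers. Peaks were called by the authors on each library, without pooling. In the deposited files, fold enrichment is a ratio of the summit to the local background, beside -log10 p and -log10 q and a deposited score of 10 times the -log10 q. These values are not scaled between libraries, and the fly chromatin spike-in was left out, so total H3K9ac was not compared. The lowest deposited -log10 q was 2.00.

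Peaks on chromosomes 1 to 19 and X were overlapped with windows within 1 kb of every start site of coding genes in GENCODE vM21 (GRCm38, the same assembly as mm10). Each gene took its strongest peak by fold enrichment and its widest peak. Within-library ranks, as normal scores, and log2 widths, centred on each library's median, were tested with limma 3.58.1 in R 4.3.3 over the 10777 genes called in every library, with all 4 groups in 1 fit and Benjamini-Hochberg adjustment. All p-values are two-sided. The replicates are separate samples in the labels, with nothing said of separate cultures, so p-values measure the spread between these samples. Replicate numbers did not pair the libraries. The fit was tested on simulated data. The zinc finger genes, the lists and the comparisons were chosen with earlier results of these data known. Named are the genes called in each comparison, up to 6 per direction for rank and 4 for width, the 5 strongest and 5 weakest, the 3 widest and 9 genes set by name, and any other name was chosen after its values were seen. Cluster 17-1, the motifs, the sequences and the epithelial and blood markers were singled out after the values were seen. A further marker is not reported here. Calling depth was recovered from fold enrichment and -log10 p under the formulas of MACS2, as the lowest background level that held at least 5% of solutions. This rule, like the KRAB pattern, was settled after its first results had been seen, and the depths of an earlier analysis were known. Read depth is unknown. The share of peaks solved was 90.5% in CPT1a KO replicate 3, 96.2% in KAT2a KO replicate 3 and at least 99.96% elsewhere. Python 3.11.15 was used for the remaining steps.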

Additional observations from a re-analysis of the deposited data

How the results depend on the processing

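Alternatives to the rank test were ranks by -log10 p, removal of the GC trend in 50 bins, a 500 bp window, an overlap of at least 200 bp, a -log10 q of at least 5, lists of equal length (16201 peaks) and a calling depth of 0.55. In CPT1a KO against scramble the number of zinc finger genes called in rank was 20, and it was 11 with the GC trend removed, 46 by -log10 p and 32 at equal depth. In KAT2a KO it was 4, and 5, 29 and 11 under these settings. With acetate against scramble it was 5, and 2, 35 and 15. At equal depth 137 genes were tested in place of 147. Without centring, the counts of genes called in width in CPT1a KO, KAT2a KO and acetate against scramble were 48, 0 and 7 in place of 21, 22 and 18. The cause of these moves was not tested, and no share of all genes under these settings is given beside the counts. The median rank difference with acetate against scramble moved from -3.08 to -0.168 with the GC trend removed. With peaks merged, 32 of 43 named width results lost their call and 9 kept it, and the width of Zfp768 reversed, to -0.0719 in KAT2a KO and -0.0314 with acetate. Without 1 library at a time, rank calls ranged from 8 to 16 in CPT1a KO, 0 to 3 in KAT2a KO and 1 to 4 with acetate against scramble, and width calls from 6 to 30, 4 to 30 and 4 to 21. These fits have fewer samples. Acetate against CPT1a KO gave 0 calls under every alternative.

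With the replicate number as a block, rank calls were 14, 3, 0 and 4 in CPT1a KO, KAT2a KO, acetate against CPT1a KO and acetate against scramble, and width calls 16, 19, 0 and 14. Deviations of same-numbered libraries from their group means correlated by -0.0630 to 0.0595 over 18 pairs, so the numbers do not pair the libraries. The count of promoters called in all 12 libraries was 137 to 147 under every alternative. The settings of cluster 17-1 were chosen after seeing the data. Shallow lists can lack peaks that need more depth, which was not tested for these promoters. A rank says nothing of the total amount of the mark.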

Other observations

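H3K9ac peaks inside the genes but away from every coding promoter were seldom present in every library. Of the 174 zinc finger genes, 84 (48.3%) had such a peak in at least 1 library and 3 (1.72%) in all 12. Of the 220 Zfp genes elsewhere, 48.6% and 1.36% had one, and of all coding genes 40.7% and 3.30%. The median gene length was 15.7 kb for the zinc finger genes and 17.4 kb for all genes. The 3 genes with a body peak in all 12 libraries were Zfp771, Zfp13 and Zfp773. Zfp773 had a promoter peak in 1 library and a body peak in all 12, with a mean of 1.08 body peaks per library. These genes were named after their values were seen.

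Across the 147 zinc finger genes, promoter GC content and the rank difference between CPT1a KO and scramble had a Spearman rho of 0.34, and over all 10777 genes of 0.26. For the width difference the values were 0.39 and 0.34. The genes share libraries, depth and base composition, so these are descriptions across genes. Between rank and width differences of the same comparison, rho was 0.27 for the zinc finger genes and 0.16 for all genes.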
